A study of Homo sapiens with 6 samples.

Results

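The genes described here are 39 genes of purine and pyrimidine nucleotide metabolism, taken from the 51537 genes of a transcript table by their symbols. All 39 were found, each as a single row, and all 39 passed the filter for testing. They were sorted by role into de novo purine synthesis (9 genes), de novo pyrimidine synthesis (5), deoxynucleotide synthesis (5), salvage (7), nucleotide kinases and turnover (9) and breakdown (4: XDH, UPP1, CDA and TYMP). Poly(A) RNA was sequenced from H3122 cells, an established human line of lung adenocarcinoma with an EML4-ALK fusion, in 3 control libraries and in 3 libraries of crizotinib-resistant H3122 cells. Crizotinib inhibits ALK and MET, both receptor tyrosine kinases, and resistance was built up by raising its concentration in steps from 0.1 to 10 µM. The labels name no treatment of the control cells. They say that the drug was kept acting while the resistant cells were cultured, but not whether it was present at harvest, whether the resistant line is a clone, or whether replicates are separate cultures. The spread behind every p-value is thus that of libraries, and it may be technical. Levels are in TPM (a length-scaled transcript abundance), as mean ± SD with n = 3, and each change is the difference of log2(TPM + 1), resistant less control, with its standard error.

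Cells obtain nucleotides in different ways. De novo synthesis builds the purine ring stepwise on ribose phosphate up to IMP, from which AMP and GMP branch, and builds UMP from carbamoyl phosphate and aspartate by way of orotate. Salvage enzymes attach phosphate or ribose phosphate to ready-made nucleosides and bases, while breakdown enzymes deaminate, cleave or oxidize the same nucleosides and bases, so that salvage and breakdown often share a substrate. Proliferating tumour cells are known for high de novo synthesis, and several of these enzymes activate or inactivate nucleoside and base analogue drugs.

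The libraries had an estimated 29856918 to 36695580 reads. The limma test covered 16077 genes and called 48.6% of them at an adjusted p below 0.05, 24.0% higher and 24.7% lower in resistant cells, and the groups did not overlap for 57.9%. The median change of all tested genes was -0.0044. Keratin genes of simple epithelium were abundant (KRT8 at 6492 ± 304 TPM in control libraries), while the lung lineage markers NKX2-1 and SFTPB were under 1 TPM in all 6 libraries. NAPSA, also a lung lineage marker, was at 1.75 TPM in the control and 1.22 TPM in the resistant libraries and was not called. Of the 12 lung epithelial markers, 10 were tested, with 3 called higher (CDH1, KRT19 and CLDN4) and 3 lower (EPCAM, MUC1 and ELF3). Of 10 fibroblast, 8 endothelial and 12 immune cell markers, 9, 6 and 11 were under 1 TPM in all 6. The exceptions were COL1A1 (3.97 TPM in the control and 13.8 TPM in the resistant libraries), CDH5 (7.24 and 3.45 TPM), PECAM1 (0.912 and 2.80 TPM) and the monocyte marker CD14 (4.24 and 4.65 TPM). Summed over the fibroblast list, control libraries lay between 3.98 and 4.56 TPM and resistant libraries between 13.7 and 15.0 TPM. These ranges were 8.13 to 8.94 and 5.85 to 7.47 TPM for the endothelial list, and 4.77 to 5.70 and 6.03 to 6.27 TPM for the immune list. DCN and LUM of fibroblasts, KDR, ERG and EMCN of endothelium, and CD2, MS4A1, LYZ and TYROBP of immune cells were listed at 0 in every library. The part of these markers in the results below was not tested. In bulk RNA, fewer cells with a transcript and less of it per cell cannot be told apart.

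Resistant cells had more transcript of all 4 breakdown enzymes, which are too few genes for a reading of this count. Genes of de novo synthesis and of salvage were called in both directions. Of the 5 deoxynucleotide synthesis genes, 3 were called higher and none lower. All these groups had smaller median changes than the breakdown genes. Of the 39 genes, 17 were called higher, 8 lower and 14 did not pass the test. The share called higher was 43.6% against the background of 24.0%, and the share called lower was 20.5% against 24.7%. The groups did not overlap for 64.1% of the 39 genes, against 57.9% of all genes tested. The background takes in genes down to 1 TPM and was not matched to the 39 genes by level. The median change was 1.03 for the breakdown genes, 0.22 for de novo purine synthesis, 0.22 for deoxynucleotide synthesis, 0.01 for de novo pyrimidine synthesis, 0.00 for salvage and -0.09 for kinases and turnover. By size, 9 genes were called with a change of at least 0.5 in either direction. Of these, 6 rose (XDH, ADA, UPP1, CDA, GART and TYMP), which is 15.4% of the genes against a background of 11.9%. The other 3 fell (IMPDH1, CTPS2 and NT5E), which is 7.69% against 10.4%. APRT, described with salvage, was just under this size.

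**Figure D1:**
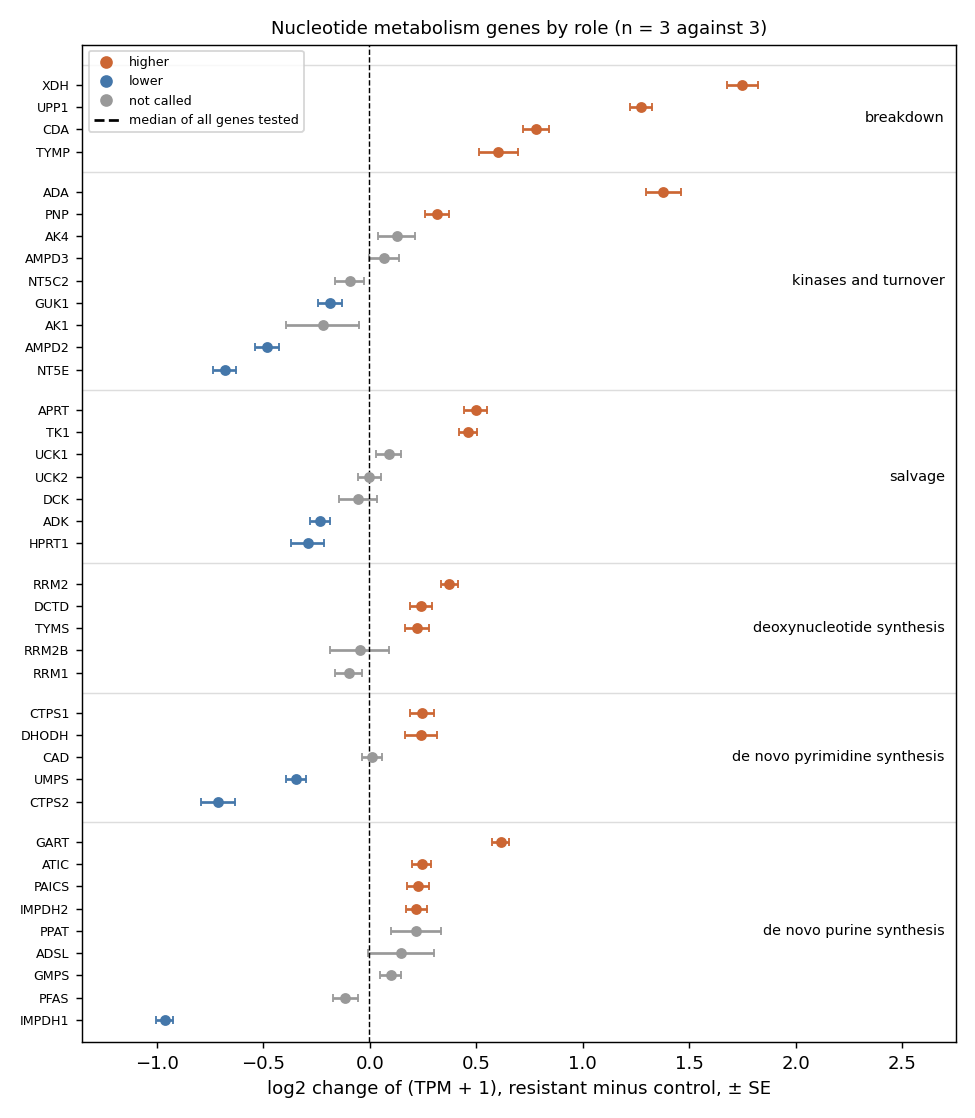
Each point is the log2 change of (TPM + 1), resistant minus control, of a gene (n = 3 against 3), with bars for the standard error, grouped by role and coloured by the limma call. The dashed line is the median of all 16077 genes tested. All 4 breakdown genes lie at 0.60 or above, while in the synthesis and salvage groups GART at 0.62 is the highest and IMPDH1 at -0.96 the lowest.

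The breakdown genes are described first, with the genomic stretch upstream of each, because these 4 genes rose together. The sequences are RefSeq promoter windows (GRCh38.p14), each limited to bases before both the RefSeq start and the GENCODE 29 gene start. They are written 5′ to 3′ on the strand of the gene, and capitals mark CCAAT on either strand. XDH is at chr2:31414743-31414992 (minus strand), UPP1 at chr7:48088454-48088627 (plus), CDA at chr1:20588847-20588947 (plus) and TYMP at chr22:50530086-50530335 (minus).
XDH: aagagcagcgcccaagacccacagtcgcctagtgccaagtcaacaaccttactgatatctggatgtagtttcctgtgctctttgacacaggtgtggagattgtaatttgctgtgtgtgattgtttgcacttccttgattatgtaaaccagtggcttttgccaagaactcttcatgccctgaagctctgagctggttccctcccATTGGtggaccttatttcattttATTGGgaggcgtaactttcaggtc
UPP1: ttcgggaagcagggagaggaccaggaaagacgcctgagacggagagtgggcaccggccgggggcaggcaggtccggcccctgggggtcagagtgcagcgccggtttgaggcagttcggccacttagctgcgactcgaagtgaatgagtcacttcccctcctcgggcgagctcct
CDA: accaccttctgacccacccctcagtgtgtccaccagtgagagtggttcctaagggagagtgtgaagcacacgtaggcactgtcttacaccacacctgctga
TYMP: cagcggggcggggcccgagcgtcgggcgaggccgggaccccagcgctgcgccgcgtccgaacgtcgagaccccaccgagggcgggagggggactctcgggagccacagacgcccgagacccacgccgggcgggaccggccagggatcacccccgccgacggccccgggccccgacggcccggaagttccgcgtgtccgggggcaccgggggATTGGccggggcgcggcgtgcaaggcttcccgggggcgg
The 4 stretches differ in base composition. CG dinucleotides made up 1.2 and 0.99 per 100 bases for XDH and CDA, against 7.47 for UPP1 and 16.0 for TYMP, beside a median of 4.67 over all 35116 windows. Those windows are whole, with 300 bases that include 50 after the start. The printed stretches hold 101 to 250 upstream bases from the most upstream window of each gene, so the comparison is rough. The motifs searched, on both strands, were CCAAT, the E-box letters CACGTG, the letters TTTCGCGC and also TTTGGCGC known from E2F sites, and TGACGTCA of the cAMP response element. CCAAT was matched 2 times upstream of XDH and 1 time upstream of TYMP, in each case as ATTGG, and no motif was matched in the printed stretches of UPP1 and CDA. CCAAT was present in 34.6% of all windows, which are longer than the printed stretches, so these matches are a description only.

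XDH encodes xanthine dehydrogenase, which oxidizes hypoxanthine to xanthine and xanthine to uric acid. XDH (ENSG00000158125, chromosome 2, 31334321 to 31414715) was at 7.64, 8.93 and 8.41 TPM in the control libraries and at 30.9, 31.5 and 28.6 TPM in the resistant libraries. Every resistant library was above every control library. The means were 8.33 ± 0.653 and 30.3 ± 1.56 TPM, a 3.64-fold ratio (log2 1.75 ± 0.07, adjusted p = 4.78e-06). By level, XDH moved from rank 37 of the 39 genes in control to rank 27 in resistant cells.

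UPP1 encodes uridine phosphorylase, which cleaves uridine to uracil and ribose phosphate. UPP1 (ENSG00000183696, chromosome 7, 48088628 to 48108733) was at 42.0, 42.3 and 42.8 TPM in the control libraries and at 97.6, 109 and 105 TPM in the resistant libraries. The groups did not overlap, and the control libraries lay close together (42.4 ± 0.442 against 104 ± 5.95 TPM, log2 1.27 ± 0.05, adjusted p = 3.91e-06). The median change of other tested protein-coding genes on chromosome 7 was -0.33, and that of the 31 within 5 Mb was 0.02 (medians of chromosomes and regions are over such genes throughout).

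CDA encodes cytidine deaminase, which turns cytidine and deoxycytidine into uridine and deoxyuridine and inactivates cytidine analogue drugs. CDA (ENSG00000158825, chromosome 1, 20588948 to 20618908) was at 75.1, 74.4 and 82.4 TPM in the control libraries and at 125, 135 and 140 TPM in the resistant libraries. All resistant libraries were higher (77.3 ± 4.43 against 134 ± 7.53 TPM, log2 0.78 ± 0.06, adjusted p = 5.49e-05). CDA was the most abundant of the breakdown genes in both groups.

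TYMP encodes thymidine phosphorylase, which cleaves thymidine to thymine. TYMP (ENSG00000025708, chromosome 22, 50525752 to 50530056) was at 8.52, 10.5 and 10.4 TPM in the control libraries and at 15.0, 16.5 and 14.8 TPM in the resistant libraries. The groups did not overlap (9.83 ± 1.14 against 15.4 ± 0.919 TPM, log2 0.60 ± 0.09, adjusted p = 0.00137). Exons of ODF3B and SCO2 on the same strand cover 20.7% of its exon bases, and how shared reads were counted is not known, so its level is uncertain. The summed level of the 4 breakdown genes was 138 ± 5.63 TPM in the control and 283 ± 12.7 TPM in the resistant libraries.

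The enzymes next to these steps did not all move with them. ADA encodes adenosine deaminase, which turns adenosine into inosine. ADA (ENSG00000196839, chromosome 20, 44619522 to 44652233) was at 13.6, 14.0 and 16.9 TPM in the control libraries and at 38.9, 40.6 and 40.5 TPM in the resistant libraries. The resistant libraries were all higher (log2 1.38 ± 0.08, adjusted p = 1.83e-05). PNP, purine nucleoside phosphorylase, which cleaves inosine and guanosine to hypoxanthine and guanine, rose from 34.0 ± 2.19 to 42.5 ± 0.888 TPM (log2 0.32 ± 0.06, adjusted p = 0.00286). NT5E encodes CD73, an ecto-enzyme that makes adenosine from AMP outside the cell. NT5E (ENSG00000135318, chromosome 6, 85449584 to 85495791) was at 58.9, 61.2 and 58.8 TPM in the control libraries and at 39.5, 34.8 and 36.2 TPM in the resistant libraries. All resistant libraries were lower (log2 -0.68 ± 0.06, adjusted p = 7.02e-05). NT5C2, a cytosolic nucleotidase of IMP and GMP, did not pass the test (43.0 ± 1.80 and 40.3 ± 3.41 TPM). Exons of CNNM2 on the opposite strand cover 36.7% of the exon bases of NT5C2, which makes its level uncertain. Counting ADA, PNP, NT5E and NT5C2 with the breakdown genes, 6 of 8 rose and 1 fell, with a median change of 0.69. The backgrounds over all genes tested were 24.0% called higher and 24.7% called lower. The 8 genes include the 4 breakdown genes already described, and so few genes allow no reading of these counts.

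The other kinase and turnover genes fell or did not pass. AMPD2, an AMP deaminase, which makes IMP from AMP, fell from 29.3 ± 1.12 to 20.7 ± 0.936 TPM (log2 -0.48 ± 0.06, adjusted p = 0.000359). The 62 tested genes within 5 Mb of AMPD2 had a median change of -0.42. GUK1, guanylate kinase, fell from 171 ± 3.94 to 150 ± 10.1 TPM (log2 -0.19 ± 0.06, adjusted p = 0.0252). This call was lost in 5 alternatives: the adjusted p was 0.0544 with no filter on low values, 0.0601 with plain empirical Bayes, 0.0646 when control library 2 was left out, 0.0816 when control library 3 was, and 0.053 when resistant library 3 was. AMPD3, a second AMP deaminase gene (8.53 and 8.99 TPM), AK4, a mitochondrial adenylate kinase (15.2 and 16.7 TPM), and AK1, the cytosolic adenylate kinase (3.30 and 2.72 TPM), did not pass. Exons of another gene on the same strand cover 92.4% of the coding bases of AK1, which makes its level uncertain.

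Salvage genes went both ways. APRT, which makes AMP from adenine, rose from 243 ± 8.49 to 343 ± 21.3 TPM (log2 0.50 ± 0.05, adjusted p = 0.000278). TK1, the thymidine kinase of dividing cells and the most abundant of the 39 genes in both groups, rose from 328 ± 7.72 to 452 ± 17.0 TPM (log2 0.46 ± 0.04, adjusted p = 0.000115). HPRT1, which makes IMP and GMP from hypoxanthine and guanine, was at 108, 125 and 117 TPM in the control libraries and at 105, 90.6 and 90.3 TPM in the resistant libraries. The groups did not overlap, but the highest resistant library was close to the lowest control library (log2 -0.29 ± 0.08, adjusted p = 0.0165). The call on HPRT1 was lost in 3 alternatives: the adjusted p was 0.0502 with the replicate block, 0.0501 when resistant library 2 was left out and 0.0573 when resistant library 3 was. ADK, adenosine kinase, which makes AMP from adenosine, fell from 95.6 ± 4.59 to 81.1 ± 2.10 TPM (log2 -0.23 ± 0.05, adjusted p = 0.00577). DCK, deoxycytidine kinase (15.4 and 14.8 TPM), and the uridine and cytidine kinases UCK1 (39.5 and 42.2 TPM) and UCK2 (34.1 and 34.1 TPM) did not pass the test. Exons of MOB1B on the same strand cover 19.8% of the coding bases of DCK. The level of DCK is therefore uncertain, and with it the ratio of CDA to DCK given below.

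Levels of breakdown or deamination enzymes were next set against the salvage enzyme of the same substrate in each library, with pairs chosen after their values were seen. The ratio of XDH to HPRT1, which share hypoxanthine, was 0.0708, 0.0712 and 0.0718 in the control libraries and 0.295, 0.348 and 0.316 in the resistant libraries, a 4.47-fold difference. HPRT1 was the more abundant transcript in all 6 libraries. The ratio of ADA to ADK, which share adenosine, was 0.151, 0.142 and 0.172 in control and 0.466, 0.509 and 0.505 in resistant libraries (3.19-fold). The ratio of UPP1 to UCK2, which share uridine, was 1.24, 1.22 and 1.27 in control and 2.85, 3.04 and 3.27 in resistant libraries (2.46-fold). The ratio of CDA to DCK, which share deoxycytidine, was 5.34, 4.85 and 4.92 in control and 7.80, 10.1 and 9.37 in resistant libraries (1.80-fold). In these 4 pairs every resistant library was above every control library. The ratio of TYMP to TK1, which share thymidine, was 0.0264, 0.0324 and 0.0310 in control and 0.0346, 0.0360 and 0.0316 in resistant libraries, and the groups overlapped (1.14-fold). Two-sided exact permutation tests gave p = 0.1 for each of the first 4 pairs, the smallest value that 3 libraries against 3 allow, and p = 0.2 for TYMP to TK1. Adjusted over the 8 ratios computed, these were 0.114 and 0.2, so no ratio could pass a threshold of 0.05. A ratio of transcripts is not a ratio of enzyme activities.

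**Figure D2:**
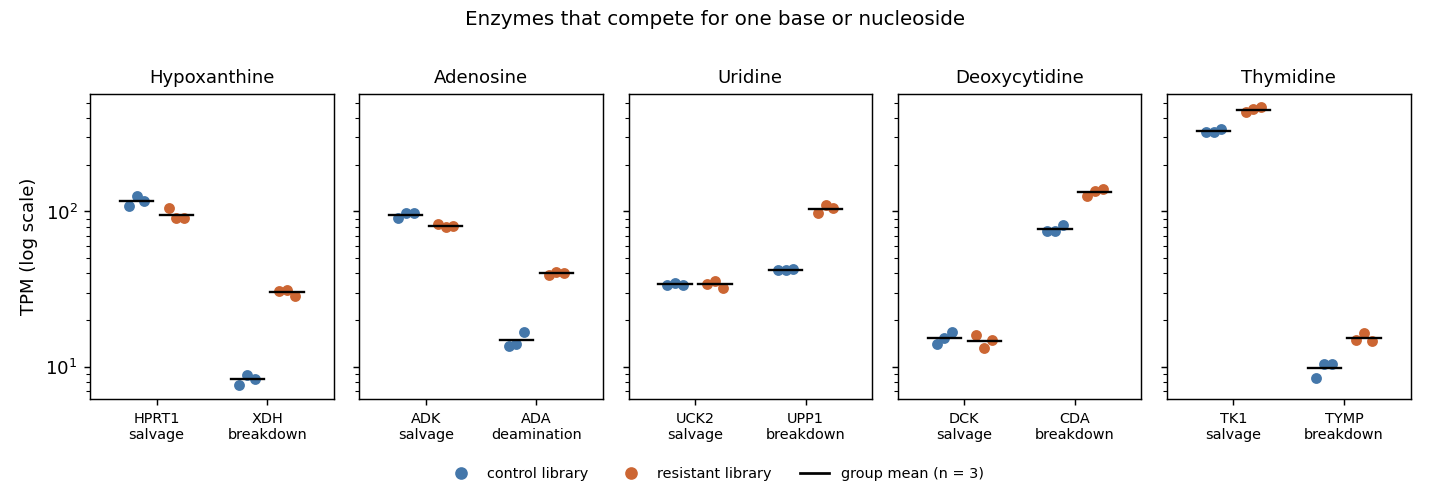
Points are TPM (log axis) of single libraries and lines are group means (n = 3) for a salvage enzyme and for the breakdown or deamination enzyme of the same base or nucleoside. XDH, ADA, UPP1 and CDA are higher in every resistant library while their salvage partners fell (HPRT1, ADK) or did not pass the test (UCK2, DCK). TK1 and TYMP both rose.

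Of the 9 de novo purine genes, GART, ATIC, PAICS and IMPDH2 rose, IMPDH1 fell and 4 did not pass. Over all genes tested, 24.0% were called higher and 24.7% lower, and 9 genes are too few for a reading of these counts. The median change of 0.22 of the 9 genes became 0.11 when control library 1 was left out. PPAT, the amidophosphoribosyltransferase of the first committed step, was at 8.15, 10.4 and 10.7 TPM in control and at 12.9, 10.6 and 10.9 TPM in resistant libraries. Its groups overlapped, and it did not pass (log2 0.22 ± 0.12, adjusted p = 0.169). PAICS, which carries out a carboxylation and a ligation in mid-pathway, was at 124, 134 and 124 TPM in control and at 156, 151 and 143 TPM in resistant libraries. It passed the test with a change close to that of PPAT (log2 0.23 ± 0.05, adjusted p = 0.00775). The 2 genes lie head to head on chromosome 4, PPAT (56393362 to 56435615) on the minus and PAICS (56435741 to 56464579) on the plus strand. The 136 bases between their RefSeq starts, chr4:56435616-56435751 (GRCh38.p14, plus strand), are shown because the genes are read outward on either side. Unlike the stretches above, this one reaches into an annotated gene: its bases from 56435741 on lie within PAICS as GENCODE 29 gives it.
PPAT-PAICS: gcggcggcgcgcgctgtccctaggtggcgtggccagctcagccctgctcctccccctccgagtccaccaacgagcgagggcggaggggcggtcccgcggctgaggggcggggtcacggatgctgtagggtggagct
This stretch has 75.0% G and C and none of the motifs searched. In control libraries PAICS was at 128 TPM and PPAT at 9.75 TPM, so the level per length differed widely between the genes on either side of it.

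GART, a trifunctional enzyme of the early pathway, was at 41.5, 41.7 and 43.1 TPM in the control libraries and at 65.5, 65.4 and 64.3 TPM in the resistant libraries. All resistant libraries were higher (log2 0.62 ± 0.04, adjusted p = 2.72e-05). GART (ENSG00000159131, chromosome 21, 33503931 to 33543491) lies on a chromosome whose tested genes had a median change of 0.29, and the 41 tested genes within 5 Mb also had a median of 0.29. ATIC, the bifunctional enzyme that closes the ring to IMP, rose from 225 ± 8.40 to 266 ± 9.39 TPM (log2 0.24 ± 0.05, adjusted p = 0.00354). PFAS, the formylglycinamidine synthase of the pathway (31.5 and 29.1 TPM), and GMPS, GMP synthase (88.2 and 94.4 TPM), did not pass. ADSL, adenylosuccinate lyase, was listed at 0.903 to 1.56 TPM over the 6 libraries, the lowest level of the 39 genes, and did not pass. Exons of an annotated gene on the same strand, AL022238.4, cover 68.8% of its coding bases, so the level of ADSL is uncertain.

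The IMP dehydrogenase genes moved in opposite directions. IMP dehydrogenase makes xanthosine monophosphate and is rate-limiting for guanine nucleotides, and its isozymes are encoded by IMPDH1 and IMPDH2. IMPDH1 (ENSG00000106348, chromosome 7, 128392277 to 128410252) was at 176, 182 and 180 TPM in the control libraries and at 88.9, 93.2 and 92.1 TPM in the resistant libraries. IMPDH2 (ENSG00000178035, chromosome 3, 49024325 to 49029408) was at 173, 183 and 185 TPM in control and at 200, 219 and 211 TPM in resistant libraries. Neither gene had overlapping groups. IMPDH1 fell (log2 -0.96 ± 0.04, adjusted p = 4.17e-06) and IMPDH2 rose (log2 0.22 ± 0.05, adjusted p = 0.00734). The ratio of IMPDH1 to IMPDH2 was 0.973 to 1.02 in control and 0.426 to 0.443 in resistant libraries (exact permutation p = 0.1, adjusted 0.114). The summed level was 359 ± 8.96 TPM in the control and 302 ± 11.5 TPM in the resistant libraries. The 38 tested genes within 5 Mb of IMPDH1 had a median change of -0.50. GENCODE 29 lists 7 pseudogenes named after IMPDH1, 7 named after PAICS and 6 named after AK4, and how reads shared with them were counted is not known.

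The CTP synthase genes also moved in opposite directions. CTP synthase makes CTP from UTP. CTPS1 (ENSG00000171793, chromosome 1, 40979335 to 41012565) was at 40.0, 43.3 and 43.7 TPM in the control libraries and at 47.7, 53.0 and 50.3 TPM in the resistant libraries. CTPS2 (ENSG00000047230, chromosome X, 16588003 to 16712936) was at 22.8, 25.6 and 25.6 TPM in control and at 14.8, 15.9 and 13.4 TPM in resistant libraries. CTPS1 rose (log2 0.24 ± 0.06, adjusted p = 0.0096) and CTPS2 fell (log2 -0.71 ± 0.08, adjusted p = 0.000285), with no overlap in either. The ratio of CTPS2 to CTPS1 was 0.571 to 0.592 in control and 0.266 to 0.311 in resistant libraries (exact permutation p = 0.1, adjusted 0.114). The summed level was 67.0 ± 3.63 TPM in the control and 65.0 ± 3.38 TPM in the resistant libraries, and overlapped. The 33 tested genes within 5 Mb of CTPS2 had a median change of -0.34.

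**Figure D3:**
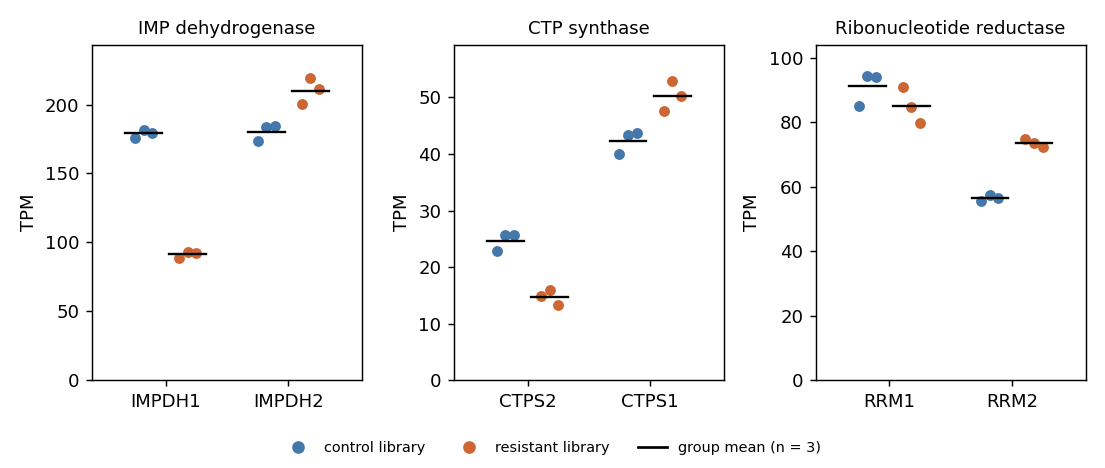
Points are TPM of single libraries and lines are group means (n = 3) for the genes of IMP dehydrogenase, CTP synthase and ribonucleotide reductase. IMPDH1 and CTPS2 are lower in every resistant library, IMPDH2, CTPS1 and RRM2 are higher, and the libraries of RRM1 overlap.

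Of the other de novo pyrimidine genes, UMPS fell, DHODH was called higher and CAD did not pass. CAD, which carries out the first reactions of the pathway, was at 56.4 ± 1.43 and 56.8 ± 2.60 TPM. DHODH, the mitochondrial enzyme that makes orotate, was called higher (11.6 ± 0.876 to 13.9 ± 0.826 TPM, log2 0.24 ± 0.08, adjusted p = 0.0337). That call was lost in 6 alternatives: the adjusted p was 0.068 with no filter on low values and 0.0644 with the replicate block. It was 0.0875 and 0.1 when control library 1 or 3 was left out, and 0.0801 and 0.105 when resistant library 1 or 2 was. UMPS, which makes UMP from orotate, fell from 63.2 ± 0.711 to 49.6 ± 2.35 TPM (log2 -0.34 ± 0.05, adjusted p = 0.000799).

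Among deoxynucleotide genes, 3 of 5 rose and none of the 5 was called lower, beside backgrounds of 24.0% and 24.7% of all genes, and so few genes allow no reading of these counts. Ribonucleotide reductase makes deoxynucleotides and pairs the large subunit RRM1 with the small subunit RRM2 or, in response to DNA damage, RRM2B. RRM2 was at 55.5, 57.5 and 56.6 TPM in the control libraries and at 74.8, 73.5 and 72.2 TPM in the resistant libraries (log2 0.37 ± 0.04, adjusted p = 0.000236). RRM2B was at 10.0, 12.5 and 10.7 TPM in control and at 13.3, 9.35 and 9.69 TPM in resistant libraries (log2 -0.05 ± 0.14, adjusted p = 0.805). RRM2 was thus higher in all resistant libraries, and RRM2B overlapped. RRM1 did not pass (91.1 ± 5.30 and 85.0 ± 5.62 TPM). The ratio of RRM2 to RRM1 was 0.602 to 0.653 in control and 0.823 to 0.906 in resistant libraries (exact permutation p = 0.1, adjusted 0.114). TYMS, thymidylate synthase, rose from 28.9 ± 1.76 to 33.8 ± 0.471 TPM (log2 0.22 ± 0.06, adjusted p = 0.0128). DCTD, which turns dCMP into dUMP for TYMS, rose from 67.8 ± 2.26 to 80.3 ± 3.70 TPM (log2 0.24 ± 0.05, adjusted p = 0.0055). Exons of ENOSF1 and TYMSOS on the opposite strand cover 46.6% of the exon bases of TYMS, and exons of another gene on the same strand cover 78.5% of the coding bases of RRM2. The levels of TYMS and RRM2, the ratio of RRM2 to RRM1 and the count of 3 genes are therefore uncertain. TK1, RRM2 and TYMS are also genes of proliferating cells. Of 22 other proliferation genes tested, 8 were called higher and 3 lower, beside the same backgrounds, with a median change of 0.04. The largest rises among them were those of CDC6 (43.8 to 70.8 TPM), CDK1 (125 to 197 TPM) and TOP2A (95.1 to 148 TPM). The genes called lower were MCM7, on chromosome 7 (281 to 156 TPM), MKI67 (93.9 to 77.2 TPM) and BIRC5 (120 to 107 TPM). The part of proliferation in the change of TK1, RRM2 and TYMS was not tested.

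The genes that fell lay in chromosomal regions that were lower. For all 8 called-lower genes the median change of other tested protein-coding genes within 5 Mb was negative, against 68.8% of all called-lower protein-coding genes. HPRT1, ADK and GUK1 fell by less than their regions (medians of -0.53, -0.51 and -0.23). The other 5 fell by more, among them NT5E, whose 28 tested neighbours had a median of -0.22. Of the 17 called-higher genes, 14 had a positive regional median, against 67.4% of all called-higher protein-coding genes, and 16 rose by more than it. The exception was DCTD, whose region had a median of 0.30. A gene chosen as called higher mostly exceeds a regional median near 0, so the count of 16 is no result. The counts of genes that moved by more or less than their regions were not set against all called genes. So few genes allow no reading of them. The regional medians of XDH, ADA, UPP1 and CDA were -0.11, 0.02, 0.02 and -0.02. That of TYMP, also a breakdown gene, was higher, at 0.16 over 37 tested genes.

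**Figure D4:**
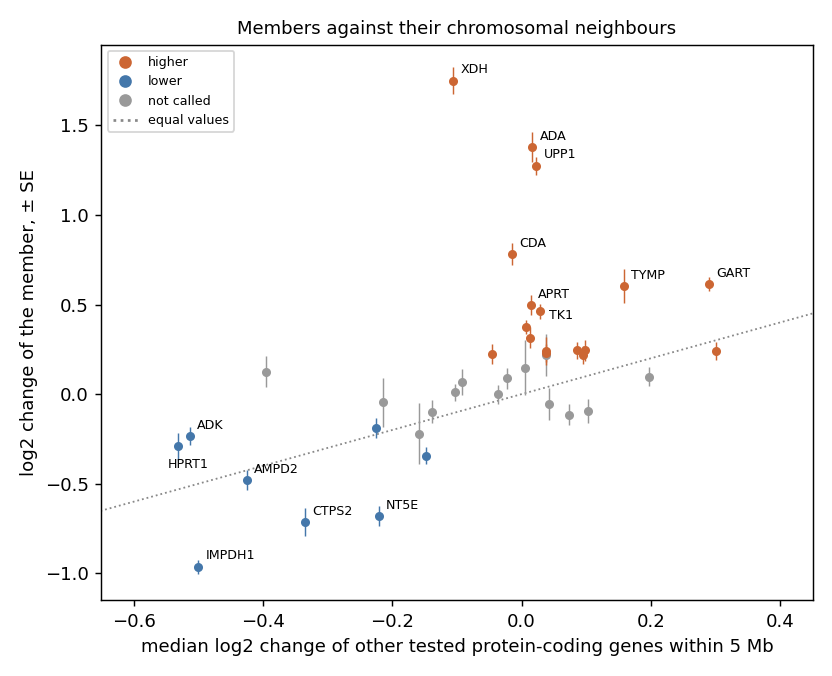
The horizontal axis is the median log2 change of other tested protein-coding genes within 5 Mb, and the vertical axis is the log2 change of each of the 39 genes with its standard error (n = 3 against 3). The dotted line marks equal values. XDH, ADA, UPP1 and CDA lie far above regions near 0, while HPRT1 and ADK lie above regions at -0.53 and -0.51. TYMP, at 0.60, lies above a region at 0.16.

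Other genes of nucleotide metabolism, from a list of 57 found genes of which 43 were tested, were called about as often as genes in general. Of the 43, 12 rose, 10 fell and 21 did not pass, with a median change of 0.00, beside backgrounds of 24.0% called higher and 24.7% called lower. CMPK1, which phosphorylates UMP and CMP, fell from 105 ± 10.2 to 54.4 ± 3.84 TPM (log2 -0.94 ± 0.08, adjusted p = 9.11e-05). SLC29A3, a nucleoside transporter of internal membranes, fell from 63.6 ± 1.42 to 34.3 ± 2.94 TPM, and AK3, a mitochondrial kinase that uses GTP, from 12.0 ± 0.703 to 7.69 ± 0.91 TPM. NME1, a nucleoside diphosphate kinase whose reads can be shared with a read-through transcript into NME2, rose from 46.5 ± 4.41 to 71.2 ± 5.76 TPM. SAMHD1, which degrades dNTPs, rose from 15.7 ± 1.09 to 21.5 ± 0.380 TPM. ENTPD5, which hydrolyses nucleoside diphosphates, fell from 9.05 ± 0.586 to 6.15 ± 0.169 TPM. UCKL1, a relative of the uridine kinases, fell from 67.5 ± 2.41 to 51.5 ± 2.64 TPM, and DTYMK, thymidylate kinase, from 166 ± 4.38 to 133 ± 4.73 TPM. The called genes below the level set for naming were GDA, NME7 and ENPP1, given here after their values were seen. GDA, guanine deaminase, which turns guanine into xanthine, rose from 0.818 ± 0.0556 to 3.53 ± 0.718 TPM (log2 1.31 ± 0.15, adjusted p = 0.000331). NME7, of the nucleoside diphosphate kinase family, rose from 2.04 ± 0.341 to 4.25 ± 0.806 TPM, and ENPP1, an ecto-enzyme that cleaves nucleoside triphosphates, from 0.576 ± 0.0592 to 1.29 ± 0.0941 TPM. DPYD, which degrades the uracil and thymine released by UPP1 and TYMP, was also chosen after its values were seen: it did not pass (5.63 ± 0.978 and 5.08 ± 0.562 TPM, log2 -0.12 ± 0.13, adjusted p = 0.499).

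Promoter windows were at hand for 36 of the 39 genes, 63 windows of 300 bases in all, from 250 before to 50 after a RefSeq start. CACGTG, the E-box letters, was found on either strand in 12.7% of these windows, against 7.26% of all 35116 windows, in 7 genes: PPAT, PAICS, ATIC, DHODH, DCK, AK4 and AMPD2. The match in PPAT and PAICS is the same stretch of DNA, 40 bases past the PAICS RefSeq start. Of these 7 genes, PAICS, ATIC and DHODH were called higher, AMPD2 lower, and the others did not pass. The backgrounds over all genes tested were 24.0% called higher and 24.7% called lower. The call on DHODH was lost in some alternatives, as given above, and so few genes allow no reading of these counts. These matches are a description only. CCAAT was found in 28.6% of the windows, against 34.6% of all. TTTCGCGC, TTTGGCGC and TGACGTCA were found in 0, 2 and 2 of the 63 windows, against 0.515%, 0.652% and 1.85% of all windows.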

How the data were processed

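The authors deposited 1 table of TPM, with a column for each of the 6 libraries, each summing to 1000000. HISAT2 is named per the submitters' processing notes, with no version; the sources used here name no counting tool, build or annotation for the table. A gene was tested where 3 or more libraries reached 1 TPM, which left 16077. Group means of log2(TPM + 1) were compared by limma 3.58.1 in R 4.3.3, using robust, trended empirical Bayes (statmod 1.5.0) and two-sided tests, with Benjamini-Hochberg adjustment over all genes tested and a threshold of 0.05. On this scale, changes at low TPM come out too small. The fit was also run on simulated data with far fewer changed genes than were called here, so that run gives no support to the calls.

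TPM keeps no depth, so reads were estimated as TPM times GENCODE 29 union exon length, divided by the smallest step of each library (whole within 0.01 for 67.0% to 67.7% of values above 0). The 39 genes had an estimated 54.0 reads or more in every library. Within groups, a chi-square per gene on these reads was 4.05 to 11.9, above the value near 1 of counting noise, and all 6 libraries were kept as separate samples. Coordinates of genes are those of GENCODE 29 (GRCh38).

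The genes, roles and lists were chosen with earlier results of these data known. Values of every library are given for called genes without overlap that changed by 0.5 or more and reached 5 TPM in the higher group, for the breakdown genes, and for the pairs IMPDH1 and IMPDH2, CTPS1 and CTPS2, PPAT and PAICS, and RRM2 and RRM2B. Of the other pathway and folate lists, at most 8 and 4 called genes with 5 TPM in the higher group are named, largest change first; 1 folate gene is not reported here. Alternatives were a pseudocount of 0.1, no filter, a filter at 5 TPM, median-ratio scaling, the replicate number as a block, plain empirical Bayes, and leaving out each library.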

Additional observations from a re-analysis of the deposited data

How the results depend on the processing

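Over 12 alternatives, 36 of the 39 genes kept their side of the threshold wherever they were tested, no change of a called gene turned its direction, and no gene gained a call. The 3 that lost a call in at least 1 alternative were DHODH, HPRT1 and GUK1. The number of genes called higher was 17, and 16 with the replicate block, and the number called lower was 8, and 7 with the block; over all genes the block gave 3433 higher and 3423 lower, against 3852 and 3963. Samples with the same replicate number did not deviate together (Pearson's r across genes of -0.0583, -0.0017 and -0.0163), and no library correlated best with its own number, so the numbers were not taken as pairs. The median change of the kinase and turnover genes was -0.013 with a filter at 5 TPM, which left AK1 untested. Leaving out single libraries, the median of de novo purine synthesis ranged from 0.105 (without control replicate 1) to 0.231. Median-ratio scaling moved the median of all genes from -0.0044 to -0.0124. Precision is limited by 3 libraries a group.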

Other observations

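Folate enzymes supply the one-carbon units of purine and thymidylate synthesis. Of 12 tested genes of a folate list, 3 rose, 2 fell and 7 did not pass, with a median change of 0.04, beside backgrounds of 24.0% called higher and 24.7% called lower over all genes tested, so the share that rose was close to the background. MTHFD1, the cytosolic trifunctional enzyme that makes formyl-tetrahydrofolate for GART and ATIC, rose from 64.2 ± 2.55 to 107 ± 1.47 TPM (log2 0.72 ± 0.04, adjusted p = 2.05e-05 by limma). MTHFD2, its mitochondrial counterpart, rose from 63.9 ± 3.36 to 74.7 ± 4.18 TPM. FPGS, which adds glutamates to folate, fell from 66.7 ± 1.59 to 55.2 ± 1.28 TPM. ALDH1L1, which oxidizes formyl-tetrahydrofolate, was named after its values were seen and rose from 0.814 ± 0.101 to 4.94 ± 0.297 TPM (log2 1.71 ± 0.12, adjusted p = 3.15e-05 by limma).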
